A study of Rattus norvegicus with 12 samples.

Results

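The mitochondrial respiratory chain and ATP synthase were followed as 105 genes among the 16074 gene IDs of a bulk RNA-seq count table of rat H9C2 cells. Genes were taken by symbol: names that begin with Nduf, Uqcr, Atp5 or Cox4 to Cox8, the 4 subunit genes Sdha to Sdhd, and names that begin with Mt-, with 7 rows whose symbol carries -ps left out. Of the 105, 92 are encoded in the nucleus and 13 (Mt-) in the mitochondrial genome. By symbol the nuclear genes were 38 of complex I, 7 assembly factors of complex I (Ndufaf), 4 of complex II, 8 of complex III, 17 of complex IV and 18 of complex V. The mitochondrial genes were 7 of complex I, 1 of complex III, 3 of complex IV and 2 of complex V.

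H9C2 is an established line from embryonic rat heart whose cells are myoblasts rather than beating heart cells. It was sequenced in 12 libraries, 4 in each of 3 groups. Cells of the LITAF group (H_R_OE) carried a lentiviral vector that overexpresses LITAF, a membrane protein of endosomes and lysosomes, and went through hypoxia at 1% O2 for 8 h and then reoxygenation for 2 h. Cells of the H/R group (H_R) carried the empty vector and had the same hypoxia and reoxygenation, and cells of the control group (NC), labelled wild type, stayed under normal oxygen without any vector. Comparing LITAF with H/R cells asks what LITAF adds during hypoxia and reoxygenation. In the H/R group against control cells, oxygen and the empty vector differ together and cannot be told apart. The deposited control columns also differ from the other 8 in form, and that cannot be told apart from the groups either. The promoter of the vector, and whether transduced cells were a single clone, are not stated in the sources used here.

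Complexes I and II feed electrons from NADH and succinate to coenzyme Q, complex III passes them to cytochrome c, and complex IV gives them to oxygen, while complex V makes ATP from the proton gradient that complexes I, III and IV build. Mitochondrial DNA encodes core subunits of complexes I, III, IV and V, read from long transcripts that are cut into single mRNAs, and the nucleus encodes the rest, complex II included. In hypoxia the transcription factor HIF-1 is known to induce Cox4i2 and Ndufa4l2, alternative forms of Cox4i1 and Ndufa4, in several mammalian cell types.

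Libraries held 17.2 to 18.4 M counts with the LITAF vector, 16.9 to 18.1 M with the empty vector and 19.2 to 20.7 M under normal oxygen. Of the deposited values, 11.9 to 12.6% in LITAF columns, 11.4 to 12.4% in H/R columns and 2.8 to 3.4% in control columns were not whole numbers. For 72 gene IDs with 2 rows each, the rows were identical in all 8 H/R and LITAF columns and differed in the control columns only. Whether control libraries were quantified separately is not stated here, and its part in values against control cells was not tested. Litaf itself had 2690.5, 2008, 2532 and 2120.3 CPM (counts relative to library size after TMM scaling) in the LITAF libraries, 549, 618.5, 573 and 598 CPM in the H/R libraries and 458.5, 485, 491 and 456 CPM in the control libraries. All 6 myoblast and skeletal muscle markers were above 0 in every library, whereas 2 of 6 cardiomyocyte markers were (Myh6 and Tnnt2), and Tnnt2 alone averaged at least 1 CPM. Endothelial markers summed to at most 0.612 CPM and leukocyte markers to at most 1.46 CPM in any library. The labels call the tissue heart and the replicates biological, without saying if each came from its own culture, and p-values therefore reflect only the scatter among these libraries.

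Of the 105 genes, 97 were tested, 84 nuclear and all 13 Mt-. Counts of Cox4i2, Cox7a1, Cox8b, Ndufa4l2 and Ndufb11b were below the low-count filter. Atp5mk, Ndufb2 and Ndufb9 each had 2 rows that were identical in the 8 H/R and LITAF columns and different in the control columns, and were left out. Ndufb2 had 209, 234, 246 and 212 counts in LITAF libraries and 231, 186, 199 and 267 in H/R libraries, against 144, 112, 129 and 115 in 1 control row and 140, 115, 122 and 182 in the other. How reads shared with paralogs or pseudogenes were counted is not stated here, so levels of genes with near-identical copies are uncertain.

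The 2 genomes took different shares of the libraries. The 89 nuclear members with a usable row held 0.819, 1.04, 0.932 and 0.978% of all counts in the LITAF libraries, 0.9496, 0.995, 0.981 and 0.925% in the H/R libraries, and 0.769, 0.738, 0.760 and 0.755% in the control libraries. In these raw shares, taken without TMM scaling, every library with hypoxia and reoxygenation was above every control library. With TMM scaling that separation was not complete, as LITAF library 1 lay below control library 1. Nuclear members had 141215 counts on an effective library size of 17.59 M in the first and 159456 on 19.62 M in the second. The 13 Mt- genes held 3.04, 2.15, 2.64 and 2.35% in the LITAF libraries, 2.94, 2.90, 3.12 and 2.42% in the H/R libraries, and 2.69, 2.81, 2.46 and 2.44% in the control libraries. In that share the 3 groups overlapped, and the LITAF libraries spread most, with a mean of 2.54 ± 0.387% against 2.85 ± 0.298% in the H/R group and 2.60 ± 0.181% in the control group (SD, n = 4 each). In bulk RNA, fewer cells of a kind and less RNA per cell cannot be told apart.

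**Figure D1:**
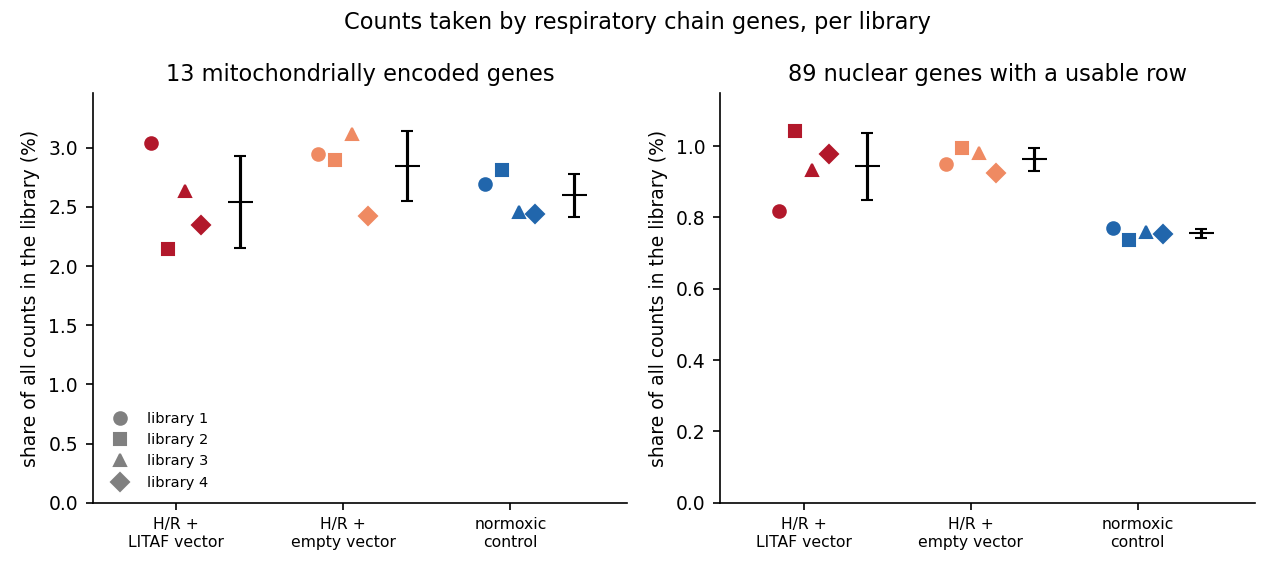
Share of all counts in a library (%) taken by the Mt- genes (left) and the nuclear members (right), for the LITAF, H/R and control groups. Each symbol is a library and marks its replicate number, and black bars are the mean ± SD of 4 libraries. In these shares without TMM scaling, the nuclear members of all 8 libraries with hypoxia and reoxygenation lie above the highest control, 0.769%.

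In the H/R group against control cells, nuclear respiratory chain genes were mostly higher: 41 of 84 rose and 5 fell (edgeR's quasi-likelihood test, adjusted p under 0.05 over 11398 genes). Over all genes tested, 31.8% rose and 31.8% fell, together 63.6%, so the 46 nuclear members called, 54.8%, were a smaller share than among all genes, while 48.8% rising and 5.95% falling was an uneven split. Their median log2 fold change was 0.31, with a middle range of 0.08 to 0.66, beside a median of 0.01 over all genes. None of the 13 Mt- genes rose and 3 fell, Mt-nd3, Mt-nd5 and Mt-nd6, with a median log2 fold change of -0.02. In a division by decimal values made after seeing the data, 29 of the 57 nuclear members with whole deposited values in all 12 libraries rose and 4 fell, at the same median of 0.31. Of the other 27, not whole in at least 1 library, 12 rose and 1 fell, at a median of 0.26. The division does not show whether control libraries were quantified in the same way. With scaling by library totals the median of all genes moved to 0.13, that of nuclear members to 0.43 and that of Mt- genes to 0.11, and 54 nuclear members rose and 3 fell, without Sdhc and Ndufaf1 among the falls. Markers of muscle cells, the type of this line, and of other cell types moved with the same contrast, not all one way. The 6 muscle markers summed to 512 to 644 CPM in H/R libraries and 2209 to 6484 CPM in control libraries, mostly through Myog, as Myod1, Myog, Myh3 and Cdh15 fell, Des rose and Tnni1 did not pass. Myog had 4.99 to 19.6 CPM in H/R and 1256.8 to 5730.4 CPM in control libraries (log2 -8.10 ± 0.58). Fibroblast markers summed to 12113 to 13743 CPM in H/R and 28816 to 38948 CPM in control libraries, almost all of it Col1a1, which fell, while Thy1 did not pass (log2 -0.18, adjusted p = 0.138), Pdgfra was below the filter and Dcn was at 0. Of the smooth muscle markers, with sums of 6218 to 6644 CPM in H/R and 3816.5 to 4803 CPM in control libraries, Acta2, Tagln and Cnn1 rose and Myh11 fell (-1.88). The part of these differences in the respiratory chain changes was not tested.

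**Figure D2:**
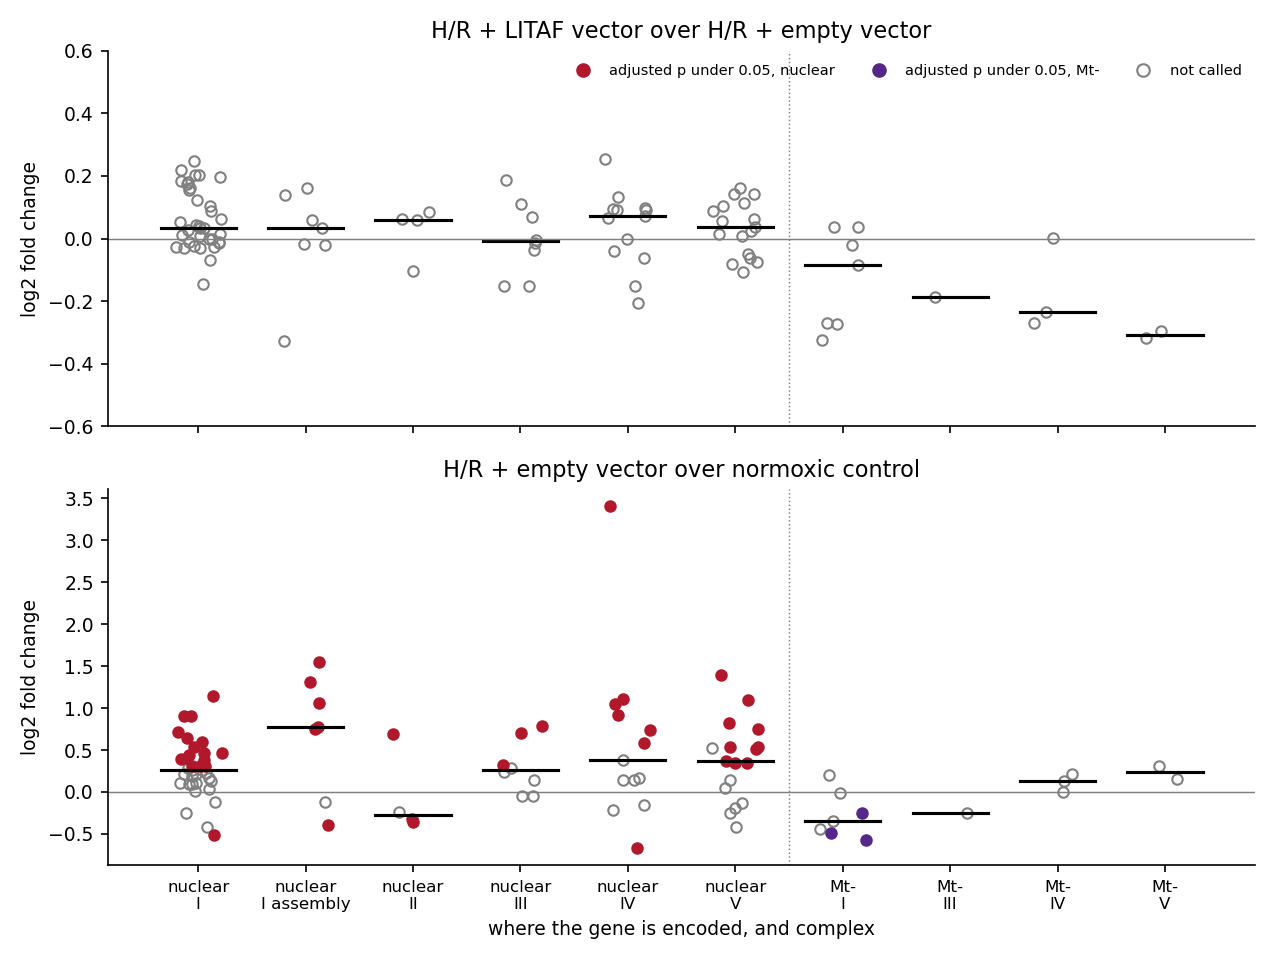
Fitted log2 fold change of each tested member by genome and complex, LITAF group over H/R group (top) and H/R group over control (bottom); filled points have an adjusted p under 0.05 and horizontal bars are medians. No member is filled at the top, where all changes lie between -0.33 and 0.25, while 41 nuclear members are filled above 0 at the bottom.

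Within complex I, which takes electrons from NADH, 16 of 35 nuclear subunits rose (45.7%, against 31.8% of all genes) and 1 fell. Those called, 48.6%, were a smaller share than the 63.6% of all genes. The 28 accessory subunits, which surround the catalytic core, gave 14 rises and no fall. Ndufa6 had 35.3, 52.4, 48.2 and 49.5 CPM in LITAF libraries, 40.5, 41.9, 38.4 and 35.2 CPM in H/R libraries and 18.4, 20.3, 15.9 and 15.8 CPM in control libraries. Every library with hypoxia and reoxygenation lay above every control, and the log2 fold change of H/R over control was 1.15 ± 0.13 (adjusted p = 1.33e-06). Ndufa7 followed with a log2 fold change of 0.90 ± 0.13, at 92.1 to 102 CPM in H/R and 39.5 to 62.2 CPM in control libraries. Among the 7 core subunits, which carry the flavin and the iron-sulphur clusters or sit beside them, the iron-sulphur subunits Ndufs7 (0.90 ± 0.13) and Ndufv2 (0.44 ± 0.14) rose. Ndufs1, the largest core subunit, fell: it had 133, 131, 131.5 and 139 CPM in LITAF libraries and 130.1, 140.1, 137 and 122 CPM in H/R libraries, against 162, 197, 215.5 and 179 CPM in control libraries, a log2 fold change of H/R over control of -0.51 ± 0.10 (adjusted p = 0.000303). Ndufs3, Ndufs8 and Ndufv1 had log2 changes of 0.26, 0.28 and 0.09 that did not pass.

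Assembly factors of complex I, which build the enzyme and are not part of it, rose in 5 of 7 cases (71.4%, against 31.8% of all genes). Ndufaf3, which acts on an early assembly module, had 11.4, 17.7, 13.6 and 14.3 CPM in LITAF libraries, 12.2, 13, 13.9 and 11.8 CPM in H/R libraries and 4.18, 4.67, 5.04 and 3.56 CPM in control libraries. Libraries with hypoxia and reoxygenation did not overlap with controls, and the log2 fold change of H/R over control was 1.54 ± 0.15 (adjusted p = 2.24e-07). Ndufaf6 (1.31 ± 0.16), Ndufaf2 (1.06 ± 0.17), Ndufaf5 (0.77 ± 0.15) and Ndufaf8 (0.75 ± 0.22) rose as well. Ndufaf1 fell (-0.39 ± 0.14, adjusted p = 0.0245), with H/R and control libraries overlapping, and lost its call in 3 of the fits without 1 of the compared libraries, at adjusted p of 0.0929 without control library 3, 0.0655 without H/R library 1 and 0.082 without H/R library 4. Of 8 further assembly genes of complex I outside the symbol rule, 3 rose (Ecsit 1.03, Timmdc1 0.90, Tmem126b 0.73 log2) and 2 fell (Acad9 -0.71, Tmem186 -0.40). These counts were near the shares over all genes, where 31.8% rose and 31.8% fell.

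Complex II, succinate dehydrogenase, is shared with the TCA cycle and is wholly nuclear, and its 4 subunits did not move together. Sdhb, the iron-sulphur subunit, had 65.8, 75.2, 73.6 and 72.96 CPM in LITAF libraries, 68.9, 71.8, 69.8 and 64.7 CPM in H/R libraries and 50, 46.5, 36.1 and 37.9 CPM in control libraries, and rose by a log2 fold change of 0.69 ± 0.11 (adjusted p = 4.92e-05). Sdha, the flavoprotein that oxidises succinate, had 106, 128, 113 and 123 CPM in LITAF libraries and 114, 114, 111 and 113 CPM in H/R libraries, against 156, 144, 136 and 144 CPM in control libraries, a log2 change of -0.36 ± 0.09 (adjusted p = 0.00253). For both genes the H/R and control libraries did not overlap, in opposite directions. The membrane anchor Sdhc fell (-0.32 ± 0.11, adjusted p = 0.0199), a call lost at adjusted p of 0.0551 without control library 4 and 0.0691 without H/R library 4, and the other anchor, Sdhd, had a log2 change of -0.23 ± 0.14 that did not pass, except without control library 3 (-0.34, adjusted p = 0.0344).

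In complex III, 3 of 8 nuclear genes rose (37.5%, near the 31.8% of all genes) and none fell. The small subunit gene Uqcrq had 76.6, 97.9, 101 and 99.4 CPM in LITAF libraries, 94.9, 96.5, 101.5 and 85.9 CPM in H/R libraries and 48.99, 55.4, 64.1 and 50.6 CPM in control libraries, a log2 fold change of H/R over control of 0.79 ± 0.12 (adjusted p = 1.91e-05). Uqcr11 rose by 0.70 ± 0.15 and Uqcr10 by 0.33 ± 0.13, both also small accessory subunits, the second with overlapping groups and an adjusted p of 0.042. That call was lost, at adjusted p of 0.0543 to 0.127, without control library 1 or 4, H/R library 1, 2 or 3, or LITAF library 3 or 4. The iron-sulphur subunit Uqcrfs1 (-0.05) and the core proteins Uqcrc1 (0.29) and Uqcrc2 (-0.04) did not pass.

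Complex IV, cytochrome c oxidase, had 6 rises (46.2%, against 31.8% of all genes) and 1 fall among 13 nuclear genes tested. Those called came to 53.8%, against 63.6% of all genes. Cox4i1 (ENSRNOG00000017817), the common form of its largest nuclear subunit, had 219, 308, 253 and 276 CPM in LITAF libraries, 238, 252, 263.5 and 233.5 CPM in H/R libraries and 126, 117, 111.5 and 104 CPM in control libraries. H/R and LITAF libraries all lay above the controls, at a log2 fold change of 1.11 ± 0.11 (adjusted p = 2.52e-07). Cox7a2l, whose product joins complexes III and IV into supercomplexes, had 187, 246, 217 and 236.5 CPM in LITAF libraries, 187, 194, 198 and 166 CPM in H/R libraries and 74.6, 100.3, 91.8 and 93.2 CPM in control libraries, a log2 fold change of H/R over control of 1.05 ± 0.12 (adjusted p = 8.27e-07). Cox5b (0.91 ± 0.12), Cox7c (0.74 ± 0.11) and Cox6a1 (0.58 ± 0.12), subunits found in most tissues, also rose.

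Ndufa4 (ENSRNOG00000005512), once assigned to complex I and now counted with complex IV, went the other way. It had 89.6, 113, 109.5 and 117 CPM in LITAF libraries and 115, 113, 116 and 95.8 CPM in H/R libraries, against 187, 179, 205 and 127.5 CPM in control libraries. The lowest control library was above all 8 others, and the log2 fold change of H/R over control was -0.67 ± 0.14 (adjusted p = 0.000441). It was the only one of the 13 nuclear complex IV genes tested that fell with all libraries, and without control library 4 Cox6c (-0.32, adjusted p = 0.0448) and Cox7b (-0.25, 0.0453) fell as well.

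**Figure D3:**
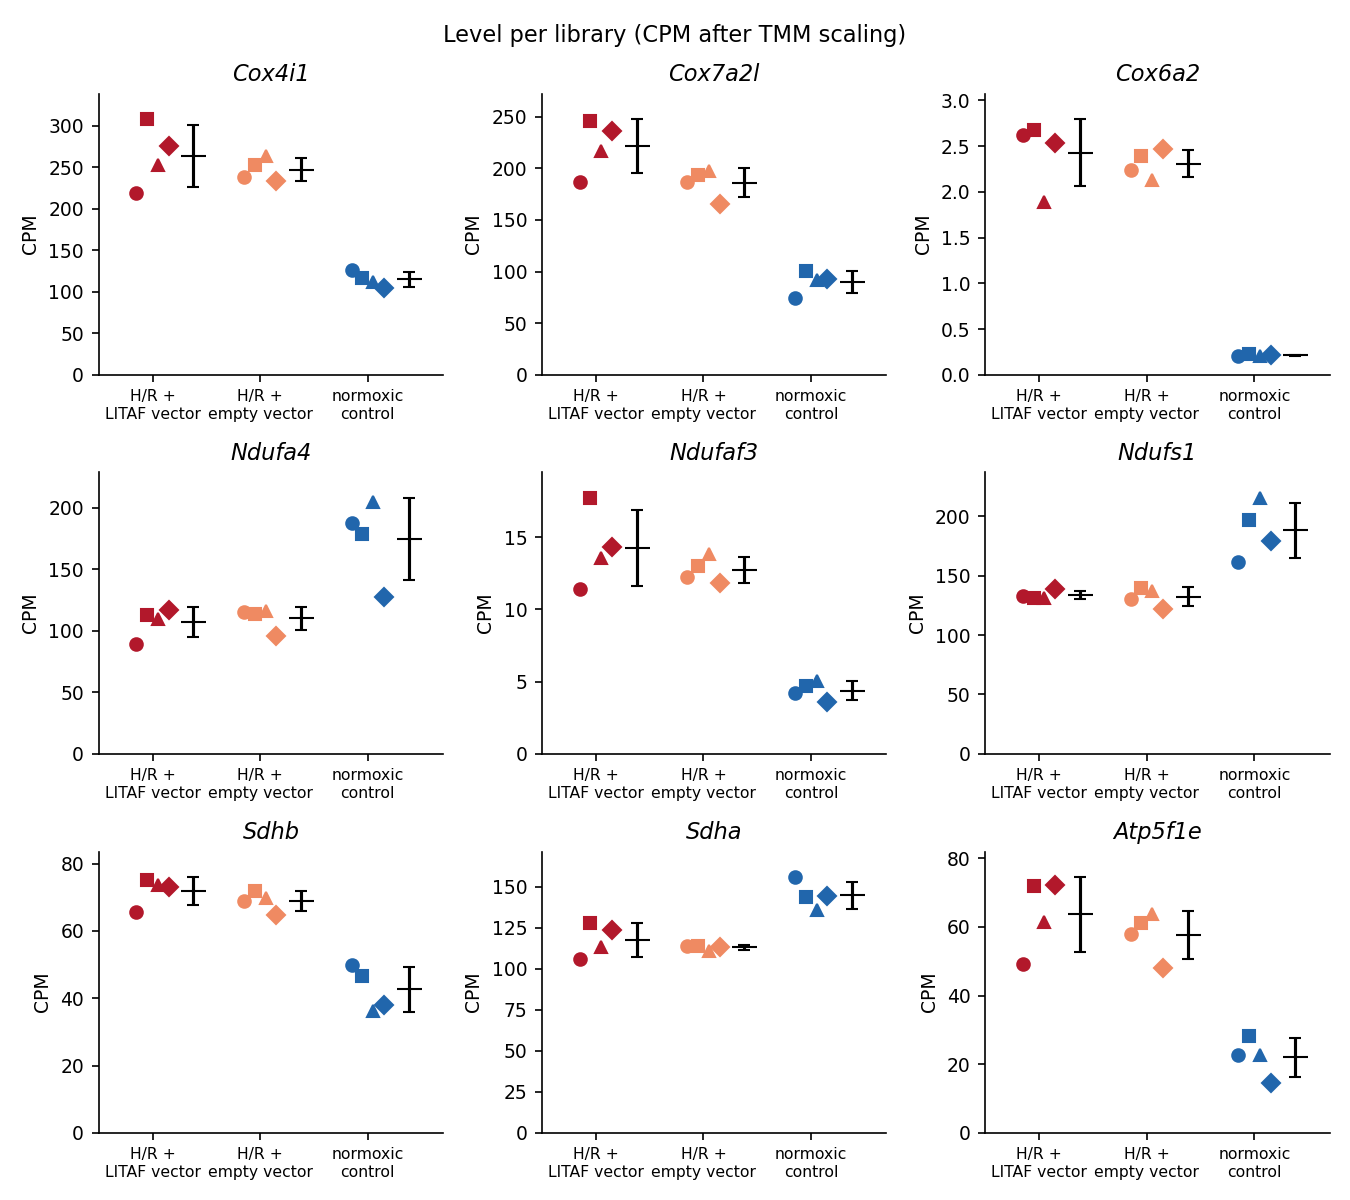
CPM of 9 nuclear members in each library of the LITAF, H/R and control groups; symbols mark replicate numbers and black bars are the mean ± SD of 4 libraries. Ndufa4, Ndufs1 and Sdha sit higher in the control libraries, the other 6 genes sit lower there, and LITAF and H/R libraries overlap in all 9.

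The hypoxia forms of complex IV were close to undetected. Cox4i2 had 1 count in LITAF library 2, 1 count in H/R library 2 and none elsewhere, control libraries included, while Cox4i1 had 1932 to 5637 counts a library. Ndufa4l2 had 5, 1, 8 and 4 counts in LITAF libraries, 6, 8, 5 and 6 counts in H/R libraries and 3, 5, 2 and 4 counts in control libraries. Each H/R library was at or above the highest control library, and the LITAF libraries overlapped both groups. Fitted without the low-count filter, its log2 fold change of H/R over control was 0.88 ± 0.56 (adjusted p = 0.214). At this depth no switch to either form was detectable. Log ratios of these forms to Cox4i1 and Ndufa4 are set by the pseudocount at such counts and are not read here. Other HIF targets that act on respiration were high in H/R libraries, as Bnip3, a receptor for removal of mitochondria, had 84.4, 87.7, 86.2 and 80.3 CPM there and 7.80, 6.22, 7.87 and 6.26 CPM in control libraries (log2 3.59 ± 0.13), and Pdk1, the kinase that holds back pyruvate dehydrogenase, a log2 fold change of 2.76 ± 0.12.

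Cox6a2 (ENSRNOG00000019851), the heart and skeletal muscle form of Cox6a1, had 46, 49, 35 and 44 counts in LITAF libraries, 42, 42, 40 and 44 counts in H/R libraries and 4, 4, 4 and 4 counts in control libraries. It was the largest rise among the 97 members tested, a log2 fold change of H/R over control of 3.40 ± 0.26 (adjusted p = 9.18e-09), from a level near the floor of 3 counts. The size of its log2 ratio to Cox6a1 is set by the pseudocount too, since H/R libraries exceeded control libraries by 2.35, 1.39 and 0.86 with pseudocounts of 0.1, 0.5 and 1 CPM, each at adjusted p = 0.0952 by a two-sided exact permutation test over 10 such tests. The unadjusted exact p was 0.0286, the smallest that 4 against 4 allows. In LITAF over H/R libraries that ratio differed by -0.04 at 0.5 CPM (exact permutation p = 0.8). Ndufb11b, a copy of a complex I gene, had 2, 4, 2 and 4 counts in LITAF libraries, 0, 2, 1 and 2 in H/R libraries and none in control libraries, and passed in the fit without the low-count filter both in H/R over control cells (adjusted p = 0.047) and in LITAF over control cells (adjusted p = 0.00368). The H/R and control libraries were all below the floor of 3 counts. The remaining muscle forms, Cox7a1 and Cox8b, had at most 2 counts in any library.

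Cox4i1, Cox6a2, Ndufa4 and Ndufa4l2 belong to the isoform pairs of complex IV. In H/R over control Cox4i1 and Cox6a2 rose, Ndufa4 fell, and Ndufa4l2 was below the low-count filter. The 250 bases before the annotated start of these 4 genes are shown. They are from RefSeq, build GRCr8, given 5′ to 3′ on the gene's strand, in lower case, with capitals for the core of the HIF response element (ACGTG or GCGTG, on either strand).
Ndufa4l2, chr7:65241919-65242168, + strand: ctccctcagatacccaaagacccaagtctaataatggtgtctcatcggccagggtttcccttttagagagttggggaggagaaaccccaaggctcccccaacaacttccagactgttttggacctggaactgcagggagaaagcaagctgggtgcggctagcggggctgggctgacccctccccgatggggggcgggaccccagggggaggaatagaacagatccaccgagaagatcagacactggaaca
Ndufa4, chr4:40975560-40975809, - strand: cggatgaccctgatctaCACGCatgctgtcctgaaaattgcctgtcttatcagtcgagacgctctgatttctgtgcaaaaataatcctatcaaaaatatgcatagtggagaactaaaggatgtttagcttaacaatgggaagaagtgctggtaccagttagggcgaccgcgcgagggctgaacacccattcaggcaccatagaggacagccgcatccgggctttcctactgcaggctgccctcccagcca
Cox6a2, chr1:192219717-192219966, - strand: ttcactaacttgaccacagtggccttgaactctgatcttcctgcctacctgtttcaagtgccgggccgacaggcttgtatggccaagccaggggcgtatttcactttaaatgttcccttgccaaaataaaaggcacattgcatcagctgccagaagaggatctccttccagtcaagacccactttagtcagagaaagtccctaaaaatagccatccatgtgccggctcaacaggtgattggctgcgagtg
Cox4i1, chr19:65630133-65630382, + strand: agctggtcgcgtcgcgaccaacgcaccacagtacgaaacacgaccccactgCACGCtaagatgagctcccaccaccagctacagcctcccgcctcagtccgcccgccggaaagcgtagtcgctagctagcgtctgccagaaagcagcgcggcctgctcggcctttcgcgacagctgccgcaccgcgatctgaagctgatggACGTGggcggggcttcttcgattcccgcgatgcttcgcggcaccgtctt

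The window of Cox4i1, which rose, held 2 matches, starting at positions -199 and -49 before the start, that of Ndufa4, which fell, held 1 at -233, and those of Ndufa4l2 and Cox6a2 held none. Windows of 300 bases, from 250 before to 50 after the start, were given for 81 of the 92 nuclear members, and 63.0% of these held the HIF core against 41.6% of 33469 promoters in the table. It was in 26 of 36 windows of nuclear members that rose and in 20 of 39 of those tested that did not. The ETS motif CCGGAAG, which GABPA binds, was in 27.2% of member windows against 8.75% of all, and the YY1 motif AAGATGGC in 21.0% against 3.17%. Between risers and the other tested members, ETS matches came to 27.8 and 28.2%, YY1 matches to 13.9 and 28.2% and NRF1 matches to 22.2 and 23.1%. Both strands were searched, and a match is a description of letters in the window.

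Among nuclear genes of the 5 complexes, complex V, the ATP synthase, had the highest share of rises in H/R over control. It was 10 of 17 tested genes (58.8%), with no fall in the fit of all libraries. Over all genes 31.8% rose and 63.6% were called. In LITAF over control cells the nuclear genes of complexes I (62.9%) and IV (61.5%) had higher rising shares than those of complex V (58.8%). Atp5f1e, the small epsilon subunit of the catalytic head, had 49.2, 71.9, 61.3 and 72.3 CPM in LITAF libraries, 57.8, 61.2, 63.8 and 47.96 CPM in H/R libraries and 22.6, 28.1, 22.6 and 14.5 CPM in control libraries. All 8 libraries with hypoxia and reoxygenation exceeded all controls, at a log2 fold change of H/R over control of 1.39 ± 0.18 (adjusted p = 3.51e-06). Of the 3 genes for the c subunit of the membrane ring, which share their mature protein, Atp5mc1 (1.09 ± 0.12) and Atp5mc2 (0.83 ± 0.14) rose and Atp5mc3 (-0.13 ± 0.12) did not pass. Atp5if1, the inhibitor that stops the enzyme from hydrolysing ATP when the gradient collapses, had 68.3, 86.95, 79.3 and 80.7 CPM in LITAF libraries, 72.2, 76.6, 73.9 and 62.8 CPM in H/R libraries and 49.6, 47.6, 44.2 and 27.4 CPM in control libraries, a log2 fold change of 0.76 ± 0.15 (adjusted p = 0.000412). The catalytic beta subunit Atp5f1b rose by 0.36 ± 0.12, while the alpha subunit Atp5f1a, with 470.3, 486, 469 and 487 CPM in H/R and 812, 679, 349 and 708 CPM in control libraries, had a log2 change of -0.41 ± 0.18 that did not pass (adjusted p = 0.0576). Control libraries of Atp5f1a differed over 2-fold among themselves, and it fell without control library 3 (-0.62 ± 0.10, adjusted p = 0.000134), without LITAF library 2 (adjusted p = 0.0487), with RLE scaling (0.0497) and with DESeq2 (-0.43, 0.0373). Without control library 1, Atp5pb, a stalk subunit, also fell (-0.38, adjusted p = 0.00766, against -0.19 with it).

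Of the 13 Mt- genes, 3 were called (23.1%, against 63.6% of all genes), all lower in the H/R group. Mt-nd5, a proton-pumping subunit of complex I, had 732, 307, 519 and 402 CPM in LITAF libraries and 501, 442, 586 and 382 CPM in H/R libraries, against 769, 692, 696 and 694 CPM in control libraries. H/R and control libraries did not overlap, and the log2 fold change was -0.58 ± 0.20 (adjusted p = 0.0184). Mt-nd6, the one member read from the other strand, had a log2 change of -0.49 ± 0.20 (adjusted p = 0.0439), and Mt-nd3 one of -0.25 ± 0.11 (adjusted p = 0.0477). These 3 calls were fragile, as none of the 3 held without control library 1 (adjusted p of 0.137 for Mt-nd3, 0.0515 for Mt-nd5 and 0.119 for Mt-nd6), and none held with scaling by library totals, where Mt-co2 (0.34) and Mt-atp6 (0.43) rose instead. Mt-nd3 also lost its call without control library 3, H/R library 1, 2 or 4 or LITAF library 3 or 4 (adjusted p of 0.0535 to 0.167 over all 7 such fits), and Mt-nd6 without any 1 control library, H/R library 1, 2 or 4 or LITAF library 3 (0.0538 to 0.119 over 8). A fit with replicate number as a block covered all 12 libraries, though only H/R and control libraries deviated together by number. In that fit 5 Mt- genes fell, with Mt-nd4 (-0.44 without the block, -0.46 with it, adjusted p = 0.0329) and Mt-nd4l (-0.38, adjusted p = 0.036) added, and Mt-atp6 rose (0.30, adjusted p = 0.03). Mt-nd4 also fell without LITAF library 1 (adjusted p = 0.0156) or 2 (0.0362), and Mt-cyb without LITAF library 1 (-0.25, adjusted p = 0.0429). Mt-atp6, at adjusted p = 0.0562 in the main fit, rose without LITAF library 1 (0.0174) or 2 (0.0466), or H/R library 4 (0.0219). It also rose with upper-quartile scaling (0.00751), as Mt-co2 did (0.0202), with TMM without the Mt- genes (0.0464) and without the low-count filter (0.0433). With H/R and control libraries fitted alone, Mt-atp6 rose (0.0293), and Mt-nd4 (0.00734) and Mt-cyb (0.0482) fell. The block also added rises of Cox7a2 (0.40, adjusted p = 0.0201), Ndufc2 (0.26, 0.0403), Ndufs8 (0.31, 0.0485), Uqcrc1 (0.31, 0.0109) and Atp5mpl (0.53, 0.0423).

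Set in the order in which they lie along the heavy strand of the mitochondrial genome, the first 7 genes, Mt-nd1 to Mt-co3, had log2 changes of H/R over control from -0.02 to 0.30, and the last 6, Mt-nd3 to Mt-cyb, from -0.58 to -0.25. Mt-atp6 (subunit a of ATP synthase) stood highest at 0.30 ± 0.13 and Mt-nd5 lowest. The last 6 genes gave 17.6, 13.3, 15.2 and 13.6% of all Mt- counts in LITAF libraries and 15.5, 14.9, 16.5 and 15.3% in H/R libraries, against 20.9, 17.7, 20.4 and 20.1% in control libraries. All 8 libraries with hypoxia and reoxygenation were below all 4 controls, the closest being LITAF library 1 and control library 2. This share does not depend on library scaling. The division after Mt-co3 was made after the values were seen, so it carries no test. Mt-atp8 overlaps Mt-atp6 and Mt-nd4l overlaps Mt-nd4, so reads of these pairs cannot be fully told apart. Whether counting used strand is not stated here either, so reads of Mt-nd6 and of its opposite strand may be mixed.

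**Figure D4:**
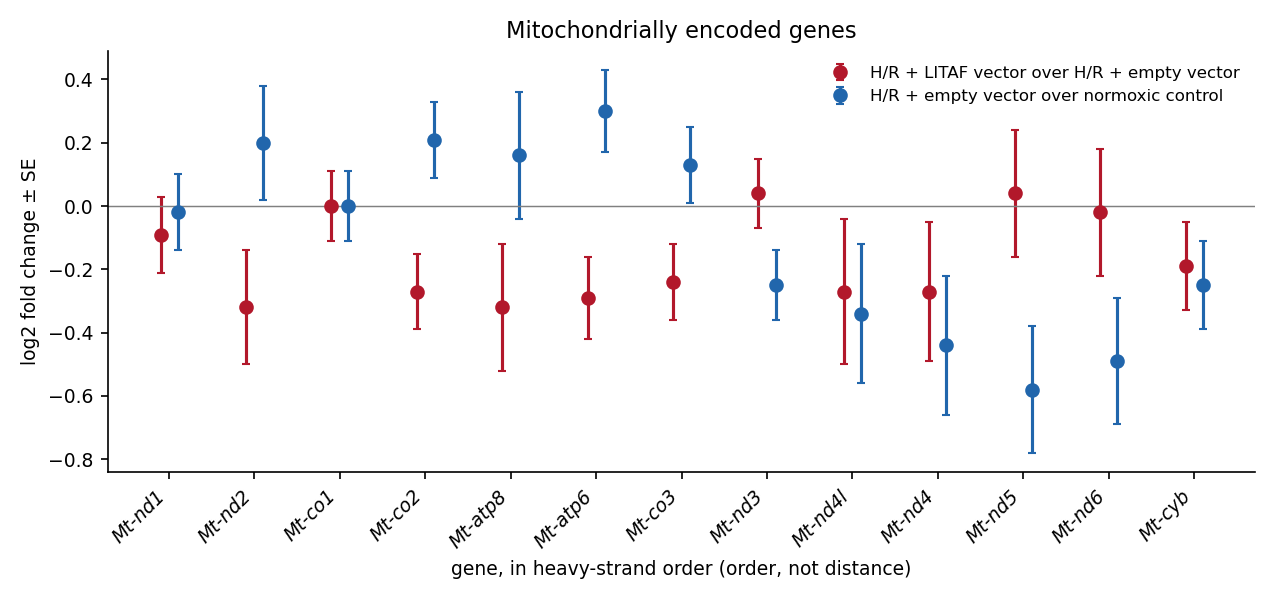
Log2 fold change ± SE of the 13 Mt- genes in heavy-strand order, LITAF group over H/R group (red) and H/R group over control (blue). From Mt-nd3 on all blue points are below 0, reaching -0.58 at Mt-nd5, while the earlier ones are at or above about 0.

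The LITAF group against the H/R group showed no called change in any respiratory chain gene. With edgeR, 0 of 97 members rose or fell, where 3.73% of all genes rose and 1.15% fell, together 4.88%, and DESeq2 also called 0. At an unadjusted p under 0.05 there were 3: Cox7a2l (log2 0.25 ± 0.11, adjusted p = 0.228), Mt-co2 (-0.27 ± 0.12, adjusted p = 0.23) and Mt-atp6 (-0.29 ± 0.13, adjusted p = 0.229). The median log2 fold change was 0.04 over the 84 nuclear genes, -0.24 over the 13 Mt- genes and -0.01 over all genes. By complex the nuclear medians were 0.03 for complex I, 0.06 for II, -0.01 for III, 0.07 for IV and 0.04 for V. Of the 2 left-out genes that could be fitted in these groups alone, Ndufb2 had a log2 change of 0.05 ± 0.12 and Ndufb9 of -0.05 ± 0.06.

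The lower Mt- median rested on libraries that differed among themselves. Mt-co2 (subunit 2 of complex IV) had 2739.5, 1869.9, 2265 and 1974 CPM in LITAF libraries and 2660.5, 2792, 2913 and 2293 CPM in H/R libraries, with overlapping groups. Mt-atp6 had 1908, 1233, 1494 and 1343 CPM in LITAF libraries and 1917, 1777, 2105 and 1535.5 CPM in H/R libraries, again with LITAF library 1 above the other 3 of its group. In LITAF library 1 all 13 Mt- genes stood above their group mean, by a median of 0.42 on the log2 scale, and 3 of 84 nuclear genes did, with a median of -0.22. In LITAF library 2 the reverse held, with no Mt- gene above the group mean (median -0.30) and 77 of 84 nuclear genes above it (median 0.17), and likewise in LITAF library 4, with no Mt- gene (median -0.17) and 78 of 84 nuclear genes above (median 0.08). LITAF libraries 1 and 3, which had the higher Mt- levels, also had the higher Litaf levels. These were 2690.5 and 2532 CPM, against 2008 and 2120.3 CPM in libraries 2 and 4. In the H/R group the order was the other way. H/R libraries 1 and 3, with Mt- medians of 0.07 and 0.22, had 549 and 573 CPM of Litaf. H/R libraries 2 and 4, at -0.03 and -0.25, had 618.5 and 598 CPM. Control libraries 1 to 4, at 0.11, 0.03, -0.06 and -0.13, had 458.5, 485, 491 and 456 CPM. How Litaf and Mt- levels relate was not tested. The median SD of log2 CPM within a group was 0.32 for Mt- genes in the LITAF group, against 0.19 in the H/R group and 0.13 in the control group. Over all genes tested it was 0.18, 0.11 and 0.23 in the same order, and over nuclear members 0.19, 0.12 and 0.22. The wider spread of LITAF than H/R libraries was thus not particular to Mt- genes.

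Without LITAF library 1, 3 Mt- genes fell, Mt-atp6 (log2 -0.42 ± 0.11, adjusted p = 0.0283), Mt-co2 (-0.37 ± 0.11, adjusted p = 0.0352) and Mt-nd4 (-0.56 ± 0.16, adjusted p = 0.0352), and Ndufa6 rose (0.38 ± 0.11, adjusted p = 0.0406), while 1285 genes were called in all against 556 with it. Without any other single library, no member was called.

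**Figure D5:**
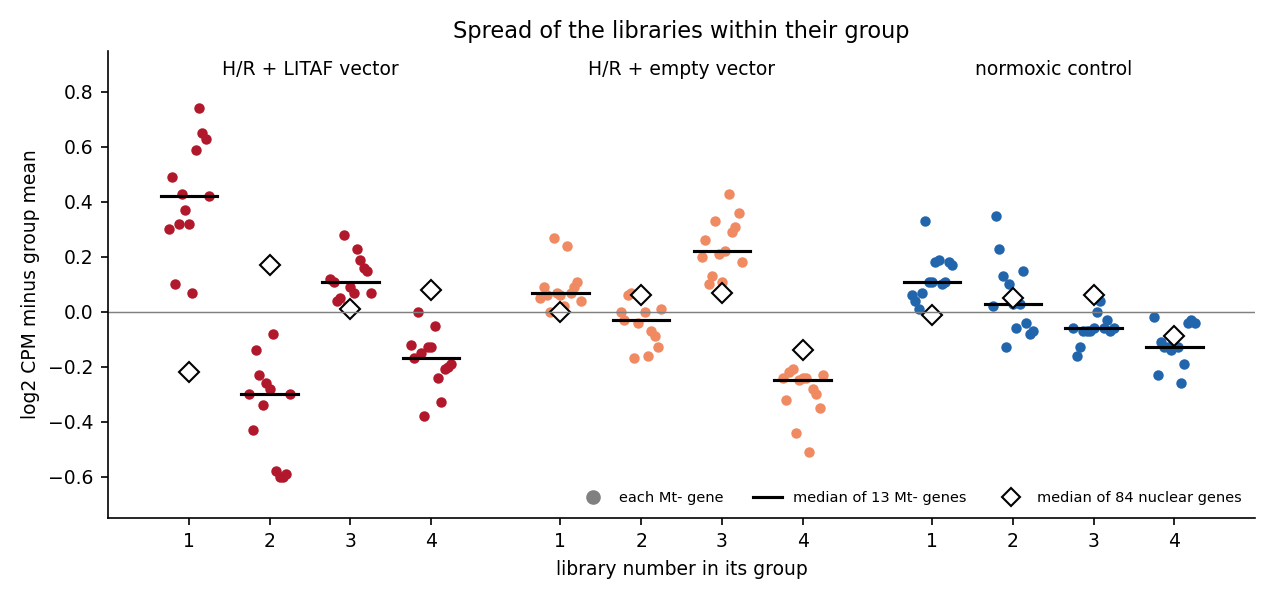
Log2 CPM of each Mt- gene minus its group mean, per library of the LITAF, H/R and control groups, with the median of the 13 Mt- genes (bar) and of the 84 nuclear genes (diamond). Mt- and nuclear medians part in opposite directions in LITAF libraries 1, 2 and 4, and lie on the same side of 0 in H/R library 4. They also have opposite signs, with smaller Mt- medians, in H/R library 2 (-0.03 and 0.06) and in control libraries 1 (0.11 and -0.01) and 3 (-0.06 and 0.06).

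The LITAF group against control cells, which shares its libraries with both comparisons above, gave 49 rises and 6 falls among 84 nuclear genes, and 0 rises and 5 falls among 13 Mt- genes. Over all genes 32.0% rose and 32.6% fell, together 64.6%. Cox4i1 had a log2 change over control of 1.20 in LITAF and 1.11 in H/R cells, Ndufa4 of -0.70 and -0.67, and Atp5f1e of 1.53 and 1.39. The 5 Mt- falls were Mt-nd4 (-0.71 ± 0.22), Mt-nd4l (-0.61 ± 0.23), Mt-nd5 (-0.54 ± 0.20), Mt-nd6 (-0.51 ± 0.20) and Mt-cyb (-0.44 ± 0.14), the last coding for the cytochrome b of complex III. Leaving out 1 library gave 2 to 5 falls, with 2 without control library 1, LITAF library 2 or LITAF library 4 and 3 without control library 2 or 3.

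Genes outside the symbol rule that belong to or serve the chain also changed in the H/R group against control cells, and none of them was called by edgeR in the LITAF group against the H/R group, where each of the 10 lists had 0 to 4 genes at an unadjusted p under 0.05. DESeq2 called 1 gene in each of 3 of these lists, namely Trmt10c (mitochondrial RNA processing), Idh3a (TCA cycle) and Slc25a5 (an ADP/ATP carrier), with edgeR's adjusted p at 0.0631, 0.0823 and 0.0841, named after their values were seen. These list counts stand beside 31.8% rising, 31.8% falling and 63.6% called over all genes. Assembly genes of complexes II to V gave 15 rises and 6 falls of 30, among them the complex IV insertase Cox18 (1.36 ± 0.11), the complex III assembly gene Uqcc2 (1.22 ± 0.15) and the copper chaperone Cox17 (1.20 ± 0.14), with a fall of Cox15, which makes haem a for complex IV (-1.19 ± 0.08), and of Tmem70 (-0.63) and Atpaf1 (-0.40), which help to build complex V. Genes for cytochrome c and coenzyme Q gave 2 rises and 2 falls of 12, with Cyc1, the cytochrome c1 of complex III whose symbol the rule does not take, at -0.43 ± 0.10 and Coq2, an enzyme of coenzyme Q synthesis, at -0.96 ± 0.12. TCA cycle genes gave 2 rises and 7 falls of 17, as Ogdh (-1.11 ± 0.13), Fh (-0.81 ± 0.12) and Idh2 (-0.73 ± 0.12) fell while Suclg1 (0.59 ± 0.10) and Idh3b (0.50 ± 0.09) rose.

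Genes that keep and read mitochondrial DNA gave 5 rises and 2 falls of 13, no larger a share called than among all genes. The helicase Twnk rose (1.21 ± 0.13) and the catalytic polymerase subunit Polg fell (-0.80 ± 0.15). The transcription factor Tfam rose (0.32 ± 0.12, adjusted p = 0.0249), and the RNA polymerase Polrmt, at 0.37 ± 0.19 (adjusted p = 0.0915), did not pass. Mitochondrial RNA processing gave 9 rises and 1 fall of 17, with Trmt10c, a part of RNase P that frees mRNAs from the long transcript, at 1.04 ± 0.15 and Pnpt1, a mitochondrial RNA-degrading enzyme, at -0.46 ± 0.14. Among biogenesis regulators 4 of 8 rose and 1 fell, led by the nuclear receptor Esrra (0.91 ± 0.10), and Ppargc1a had at most 3 counts in any library. Carriers, uncoupling proteins and outer membrane porins gave 7 rises and 1 fall of 11 (the porin Vdac1 0.99, Ucp2 -0.32), protein import and cristae genes 9 rises and 1 fall of 17 (Micos13 1.54, Immt -0.27), and hypoxia regulators of respiration 8 rises and 2 falls of 12, with the highest median of the 10 lists, 1.31.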

How the data were processed

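RNA-seq of 12 libraries of H9C2 cells, 4 in each of 3 groups, was read from a gene table deposited by the authors, whose values were taken as estimated counts because part of them are not whole. DESeq2 and edgeR are named, with no role or version, per the submitters' processing notes; aligner and genome build: not given in the sources used here. Of 16204 rows, 258 shared an ID with another; identical rows were merged, and 72 IDs whose rows differed were left out, which left 16002. Values were rounded to whole numbers. Genes were filtered with filterByExpr by group, scaled by TMM and fitted over all 12 libraries with edgeR 4.0.16 (quasi-likelihood, R 4.3.3, limma 3.58.1). Benjamini-Hochberg adjustment covered 11398 genes, at a threshold of 0.05, and the common biological coefficient of variation was 14.5%. Errors of log2 changes are SE. DESeq2 1.42.0 was an alternative. The fit was tested on simulated data. CPM are relative to the effective library size and not per length.

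Members and lists were chosen with earlier results of these data known. Genes named were the Mt- genes, the isoform genes, the Sdh genes, Litaf, and up to 2 rises and 2 falls per complex (3 and 3 per other list) by size among called genes with no overlap between groups and a mean log2 CPM of at least 2; further members and list genes named (such as Tfam and Polrmt) were chosen after their values were seen. Same-numbered H/R and control libraries deviated together (correlations of 0.30 to 0.57, each highest with its own number). That pairing was read from the data, and the main fit did not use it. Replicate number entered as a block in an alternative fit only. Isoform log ratios were compared by exact permutation of 70 splits, smallest p 0.0286.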

Additional observations from a re-analysis of the deposited data

Results flagged for a closer look

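In 14 of 252 groups of 4 libraries examined, 1 library stood apart from the other 3 by Dixon's criterion, and chance alone flags about 5% of groups. In control library 1, Mt-nd5 had 768.6 CPM, against 691.8 to 696.2 CPM in the other 3 controls, Mt-cyb 3303.5 against 2796.5 to 2863.0 CPM, and Mt-atp8 92.36 against 66.71 to 69.93 CPM. In H/R library 4, Mt-co1 had 10500.0 CPM, against 12780.7 to 13118.1 CPM in the other 3, Mt-co3 3395.8 against 4193.4 to 4319.6 CPM, Ndufa4 95.81 against 113.3 to 116.2 CPM, and Rexo2 99.51 against 105.6 to 106.5 CPM.

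In LITAF library 1, Uqcrq had 76.62 CPM, against 97.88 to 101.0 CPM in the other 3. In control library 2, Uqcr11 had 8.058 CPM, against 5.76 to 6.021 CPM, and Iscu 61.41 against 84.62 to 88.51 CPM. In control library 3, Idh3b had 38.28 CPM, against 41.96 to 42.51 CPM. In H/R library 1, Cyc1 had 125.2 CPM, against 133.5 to 134.8 CPM, and Fam162a 90.89 against 120.0 to 123.8 CPM. In H/R library 3, Idh2 had 239.9 CPM, against 255.4 to 258.4 CPM.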

How the results depend on the processing

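For the H/R group over control, 8 members fell, against 3 with library totals, 4 with upper-quartile scaling and 3 at an adjusted p under 0.01; the nuclear median was 0.31, against 0.43 and 0.42 with these 2 scalings. For the LITAF group over control, 11 fell, against 5 with library totals, 6 with upper-quartile scaling, 7 with the 2 groups alone and 4 at an adjusted p under 0.01. The cause was not tested. With the replicate block, 47 members rose and 10 fell for H/R over control. Leaving out 1 library gave 34 to 45 rises and 4 to 10 falls for H/R over control, 38 to 56 and 7 to 11 for LITAF over control, and 0 to 1 and 0 to 3 for LITAF over H/R. Falls for H/R over control came to 5 without H/R library 1 and 4 without H/R library 4, and for LITAF over control to 7 without LITAF library 4. The medians then ranged from 0.28 to 0.34 (nuclear) and -0.09 to 0.06 (Mt-) for H/R over control, and from -0.02 to 0.13 and -0.33 to -0.10 for LITAF over H/R. The Cox6a2 to Cox6a1 log ratio ranged from 1.30 to 1.49 and from -0.15 to 0.04 at 0.5 CPM, while pseudocounts of 0.1 and 1 CPM gave 2.35 and 0.86 for H/R over control.

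Library totals and upper-quartile scaling moved the rising share of all calls to 59.0 and 58.1%, against 49.9%, for H/R over control and to 61.0 and 66.5%, against 76.4%, for LITAF over H/R. All-gene calls for LITAF over H/R were 556, against 1098 with the 2 groups alone, 901 with DESeq2 and 873 with the replicate block. Same-numbered LITAF and H/R libraries correlated at 0.05 to 0.20, so they share only a number; 1 of 4 correlated best with its own, and the block called 0 members there. Of 3321 values of 81 named genes under alternatives, 3226 kept their side of the threshold, 40 gained a call and 55 lost it. No called value changed sign, but 46 uncalled ones did, all within 0.09 of 0 as reported; Mt-nd1 for H/R over control was 0.11 with library totals, against -0.02. Genes of under 10 counts a library are limited by depth.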
